A study of Mus musculus with 18 samples.

Results

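The NSRdT libraries of this series were reverse transcribed with a mixture of not-so-random primers and oligo(dT), and they are described here against the NSR libraries, which had the not-so-random primers alone. The groups hold 3 libraries each, 6 of the 18 libraries in the series, and differ in no other label. All 6 were made by RT-RamDA, an amplification of cDNA directly from the RNA template during reverse transcription, from 10 pg of purified total RNA of 5G6GR mouse embryonic stem (ES) cells, an established line grown without feeder cells in serum and leukemia inhibitory factor under puromycin and blasticidin, and had 17 cycles of PCR. As background, 5G6GR cells carry a transgene of Gata6 fused to the ligand-binding domain of the glucocorticoid receptor. The series also holds 3 N6dT, 3 N6, 3 dT and 3 bulk libraries, of which the N6dT and N6 libraries serve here for the same addition of dT to plain random hexamers. The labels do not say that replicates came from separate RNA extractions, so the p-values measure the spread between these libraries, which may be technical.

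The NSRdT libraries held 8315792, 5333546 and 8271882 estimated counts, against 8025566, 8081785 and 8039407 in the NSR libraries. NSRdT replicate 2 was thus the shallowest. Of 47643 genes in the table, 28244 had a count in at least one of these 6 libraries, 15682 passed the filter on low counts and were tested, and 31961 were not tested. Levels are CPM values, counts relative to the library total, scaled by the trimmed mean of M-values (TMM), which sets the bulk of genes level between libraries. By library totals alone, the median log2 fold change of all genes tested moved to 0.27, against -0.03 with TMM, so a change below is relative to the typical gene and not to the library total.

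As background, random and not-so-random primers can anneal along the whole of an RNA, with or without a tail, and not-so-random primers are hexamers chosen to leave out matches to ribosomal RNA. Oligo(dT) anneals to poly(A), which most messenger RNAs carry at their 3' end, while ribosomal RNA, 7SK and most replication-dependent histone mRNAs end without a long tail. A short mRNA offers few sites to a random primer and, per molecule, as many tails as a long one.

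To show how the RNAs discussed below end, the last 30 bases of 5 mRNAs that rose with NSRdT are given first, from GENCODE vM21 transcripts (GRCm38, the build called mm10 in the submitters' notes), 5' to 3' in the sense of the transcript, with the polyadenylation signal AATAAA or ATTAAA in capitals. They belong to ribosomal proteins of the small and large subunit (Rps29, Rps28, Rpl38, Rplp2) and to Lsm5, a subunit of a ring of Sm-like proteins in mRNA decay and splicing. Rplp2 holds neither signal in its last 50 bases, and nor does H3f3a, a histone mRNA called higher below.
Rps29 (chr12:69157722-69157751, minus strand): cacaaagAATAAAaatgtgaagaactttaa
Rps28 (chr17:33823050-33823079, minus strand): tgcaactgttaAATAAAgcatttatattaa
Rpl38 (chr11:114672302-114672331, plus strand): gcgtgtgactATTAAAaaccctgaaaagtg
Rplp2 (chr7:141451556-141451585, plus strand): gagcctgaattgaaaaaaaatttttttttg
Lsm5 (chr6:56701063-56701092, minus strand): actaaaaaaAATAAAgatgtttttggttaa

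The next 4 stand for RNAs whose genes belong to classes without a long poly(A) tail: Rn7sk, the RNA that holds the elongation factor P-TEFb inactive, Rmrp, the RNA of RNase MRP, and the replication-dependent histones Hist1h1c (a linker histone) and Hist1h2ap (an H2A). Rn7sk and Rmrp were lower with NSRdT, and the histones were not called. Capitals mark a polyadenylation signal in Hist1h1c and the histone stem-loop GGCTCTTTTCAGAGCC in Hist1h2ap. In the last 50 bases, 13 of 63 replication-dependent histones (20.6%) held such a signal.
Rn7sk (chr9:78175303-78175332, minus strand): ggcgctgcatgtggcagtctgcctttcttt
Rmrp (chr4:43492788-43492817, minus strand): caaccacacggggctcattctcagcgcggc
Hist1h1c (chr13:23740338-23740367, plus strand): ttctAATAAAaagcgtttagttttcattca
Hist1h2ap (chr13:21833026-21833055, minus strand): aaaaaaaaaaaGGCTCTTTTCAGAGCCatc

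The first comparison was of the kinds of RNA that filled the libraries. Transcripts annotated as protein-coding took 51, 51.6 and 50.8% of the estimated counts with NSRdT, against 42.3, 43.6 and 43.3% with NSR, a difference of 8.04 percentage points. Every NSRdT library lay above every NSR library. The exact permutation test gave p = 0.1, two-sided, which is the smallest p that 3 against 3 libraries allow, and the same holds for each share in this paragraph that did not overlap between the groups. rRNA-annotated transcripts, nearly all of them the 18S rRNA copy Rn18s-rs5, took 10.4 ± 0.471% with NSRdT and 14.4 ± 0.897% with NSR (SD, n = 3 each). Mitochondrial rRNAs took 12 ± 0.492% and 13.7 ± 0.497%, and lincRNAs 14.6 ± 0.0313% and 16.4 ± 0.243%, in the NSRdT and the NSR libraries. The lincRNA difference was about that of a single gene, Gm42418, described below. Unprocessed pseudogenes took 1.09 ± 0.0224% with NSRdT and 1.84 ± 0.130% with NSR, and their leading members are the nuclear copies of mitochondrial genes described further down. Antisense transcripts (0.289 ± 0.00650% with NSRdT, 0.283 ± 0.0297% with NSR) and small nuclear RNAs (0.0554 ± 0.0133% and 0.0479 ± 0.0177%) overlapped between the groups.

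**Figure D1:**
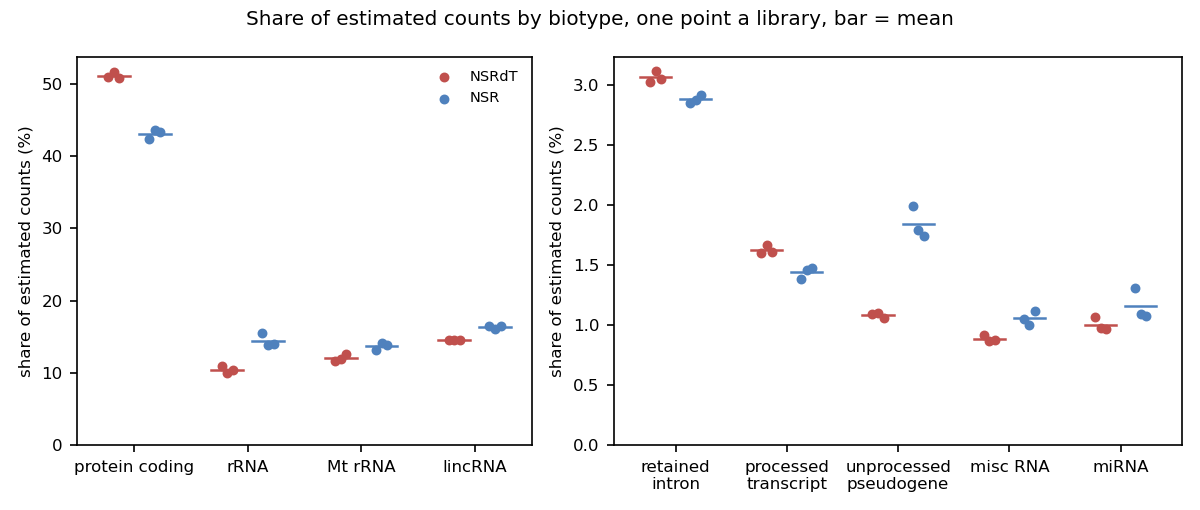
Share of estimated counts (%, vertical axis) by biotype (horizontal axis) in each NSRdT library (red, left) and each NSR library (blue, right), with bars at the means of 3 libraries. Protein-coding, retained intron and processed transcripts are higher in every NSRdT library (the retained intron difference changes sign to -0.0041 percentage points without rRNA and mitochondrial genes), and rRNA, Mt rRNA, lincRNA, unprocessed pseudogene, misc RNA and miRNA are lower in every one.

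A handful of genes held a large part of the counts. Gm42418 (an annotated lincRNA), Lars2 (mitochondrial leucyl-tRNA synthetase), Rn18s-rs5, mt-Rnr1 and mt-Rnr2 together took 39.4, 38.7 and 40.1% of the counts with NSRdT, against 49.4, 48.3 and 48.3% with NSR. Gm42418 alone held 9.53 ± 0.0370% and 11.3 ± 0.102%, and Lars2 7.44 ± 0.101% and 9.23 ± 0.135%, in NSRdT and NSR libraries (SD, n = 3 each). The difference of Gm42418, -1.819 percentage points, was about as large as that of all lincRNAs together, -1.816. The fall in the lincRNA share is thus not one of lincRNAs as a class. Gm42418 (chr17:39846958-39848788, plus strand) lies within the span of Rn18s-rs5 (chr17:39846353-39848827, minus strand), and as the strand of counting is not given in the sources used here, reads of these loci cannot be told apart by strand. Without these 5 genes, a choice made after seeing the data, the protein-coding share was 72.1 ± 0.198% with NSRdT and 66 ± 0.838% with NSR, and again no library of one group reached the other.

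Across single genes, 193 of 15682 were called at an adjusted p under 0.05 by edgeR's quasi-likelihood test (1.23%), 163 higher with NSRdT (1.04%) and 30 lower (0.191%). At an unadjusted p under 0.05 there were 1136. All 163 and all 30 were also apart, with no overlap between the 3 NSRdT and the 3 NSR libraries, where 7.82% of all tested genes lay apart upward and 6.73% downward. The higher genes were mostly short: 120 of the 163 had a leading transcript under 1000 bases, and 1 had one of 4000 bases or more. Their median length was 683 bases, against 2602 for all tested genes and 1308 for the genes called lower. By kind, the 163 were 53 cytoplasmic ribosomal protein genes, 75 other protein-coding genes, 21 pseudogenes, 6 genes with predicted symbols, 6 mitochondrially encoded genes and 2 other non-coding genes. Reads of such genes can be shared, and 85 of the 160 higher genes with a reference sequence shared at least 50% of their 31-base words with transcripts of other genes.

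Genes of the cytoplasmic ribosome held more calls than any other list. All 80 on the list were tested, 53 were called higher and none lower, where 1.04% of all genes tested were called higher. The median log2 fold change was 0.87, against -0.03 over all genes tested. Summed over the list, the level was 22342, 22048 and 22966 CPM with NSRdT, against 13570.4, 12981 and 13422 CPM with NSR. Rps29, a small-subunit protein, had 208, 227 and 252 CPM with NSRdT, against 24.2, 12 and 11.5 CPM with NSR (log2 fold change 3.85, SE 0.28, adjusted p = 2.86e-07). Rpl38, of the large subunit, had 126, 138 and 124 CPM with NSRdT and 14.5, 8.70 and 11.8 CPM with NSR (log2 fold change 3.46, SE 0.19, adjusted p = 1.8e-08). For both genes all 3 NSRdT libraries lay far above all 3 NSR libraries.

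Rplp2, a protein of the ribosomal stalk, had 301, 338 and 332 CPM with NSRdT and 40.1, 26.2 and 37 CPM with NSR (log2 fold change 3.23, SE 0.17, adjusted p = 1.8e-08). Rps28 had 204, 193 and 189.7 CPM with NSRdT and 21.6, 24.6 and 17.9 CPM with NSR (log2 fold change 3.19, SE 0.16, adjusted p = 1.8e-08). Rpl24 had 229.6, 216 and 260.1 CPM with NSRdT, against 20.1, 43.1 and 11.1 CPM with NSR (log2 fold change 3.25, SE 0.34, adjusted p = 2.43e-05). Rpl22l1, a paralog of a large-subunit protein that is not on the list of 80, had 96.6 ± 10.3 CPM with NSRdT and 8.05 ± 0.655 CPM with NSR (SD, n = 3 each), with a log2 fold change of 3.58. In each of these the lowest NSRdT library was above the highest NSR library. Pseudogene copies are common in this family: of the 53 called genes, 17 shared less than 50% of their 31-base words with other genes, among them Rps29 and Rplp2.

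Not all ribosomal protein genes followed. Rpl4, a large-subunit protein with a 1422-base transcript, had 859, 893 and 912 CPM with NSRdT and 1016, 901 and 947 CPM with NSR, which overlap. Rps12 (476 bases) had 198, 217 and 234 CPM with NSRdT and 316, 306 and 335 CPM with NSR. It was not called (log2 fold change -0.56, adjusted p = 0.658). Rps12-ps3, a pseudogene by its symbol but annotated as protein-coding, was called higher. It had 345, 303 and 284 CPM with NSRdT and 11.1, 17.9 and 7.83 CPM with NSR. Rps12-ps3 shares 100% of its 31-base words with Rps12, so neither level can be read apart from the other. How reads were divided between these genes was not tested. Within the list, 16 of 17 genes with transcripts under 500 bases were called higher (median log2 fold change 1.79), as were 32 of 46 from 500 to 1000 bases (median 0.81) and 5 of 17 of 1000 bases or more (median 0.36). A signal of the form AATAAA or ATTAAA stood in the last 50 bases of 68 of the 80 transcripts (85%), searched on the transcript's own strand, and of 78.0% of all protein-coding genes tested.

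**Figure D2:**
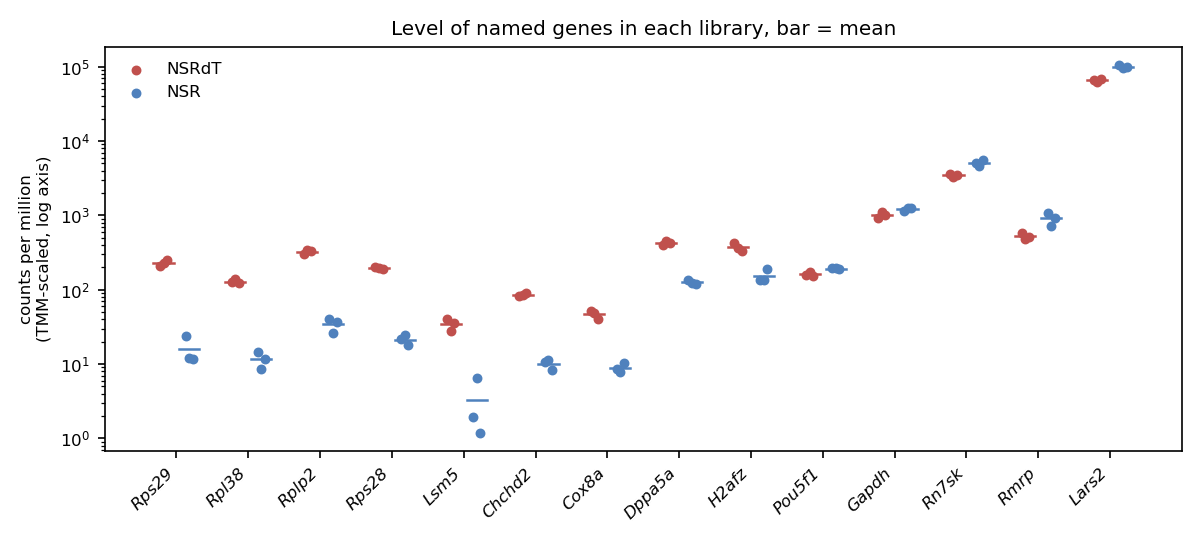
Level in TMM-scaled CPM (vertical log axis) of 14 named genes in each NSRdT library (red, left) and each NSR library (blue, right), with bars at the means of 3 libraries. The short mRNAs at the left (Rps29 to H2afz) are higher in all NSRdT libraries, Pou5f1 and Gapdh were not called, and Rn7sk, Rmrp and Lars2 are lower.

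Nuclear genes for oxidative phosphorylation, which encode most subunits of the respiratory chain and ATP synthase, had a median log2 fold change of 1.00 over the 79 tested of 84. Of these, 13 were called higher and none lower, and 53 lay apart upward (67.1% of the list), where 1.04% of all genes tested were called higher and 7.82% lay apart upward. Cox8a, a small subunit of cytochrome c oxidase, had 51.5, 48.2 and 40.3 CPM with NSRdT and 8.58, 7.77 and 10.2 CPM with NSR (log2 fold change 2.40, SE 0.26, adjusted p = 3.78e-05). Atp5e, the epsilon subunit of ATP synthase, had 24.9, 24.5 and 19.2 CPM with NSRdT and 1.80, 1.98 and 2.79 CPM with NSR (log2 fold change 3.38, SE 0.42, adjusted p = 0.000138). Neither shares a 31-base word with another gene. Ndufa1, an accessory subunit of complex I, had 19.2, 15.6 and 19.7 CPM with NSRdT and 1.25, 0.922 and 0 CPM with NSR (log2 fold change 4.63, SE 0.80, adjusted p = 0.00393). The long transcripts of the list, those of 1000 bases or more, gave 1 call in 26, Cox7b (59.7 ± 2.87 CPM with NSRdT, 18.5 ± 1.98 CPM with NSR), and a median of 0.41. Atp5b, the catalytic beta subunit with a 1916-base transcript, had 432 ± 6.02 CPM with NSRdT and 439.7 ± 40.0 CPM with NSR, which overlap. Fitted on the 6 libraries alone, 4 members were called, while DESeq2 called 35.

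Mitochondrial ribosomal proteins, with a median transcript length of 1068 bases, gave no call by edgeR among 76 tested, with 9 higher at an unadjusted p under 0.05, 1 called by DESeq2, a median of 0.41 and 23 members apart upward (30.3%, against 7.82% of all genes tested). Mrpl21, of their large subunit, had 25.8 ± 4.23 CPM with NSRdT and 10.8 ± 3.34 CPM with NSR (adjusted p = 0.391).

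Of the replacement histones, whose mRNAs are polyadenylated, 2 of 11 were called higher and none lower, where 1.04% of all genes tested were called higher. On this list 6 lay apart upward (54.5%, against 7.82% of all genes tested). H2afz, the H2A.Z variant, had 430.3, 362 and 335 CPM with NSRdT and 137, 137 and 189 CPM with NSR (log2 fold change 1.28, SE 0.15, adjusted p = 9.06e-05). H3f3a, which encodes H3.3, had 279 ± 31.9 CPM with NSRdT and 138 ± 12.4 CPM with NSR (log2 fold change 1.02, SE 0.13, adjusted p = 0.000144). The other gene for H3.3, H3f3b, with a transcript of 1993 bases against 888, had 174 ± 4.42 CPM with NSRdT and 118 ± 16.8 CPM with NSR and was not called (adjusted p = 0.0942). Replication-dependent histones lay mostly below 0: edgeR called none of 63, with 9 lower and 1 higher at an unadjusted p under 0.05 and 2 lower and 1 higher by DESeq2, but 50 had a log2 fold change below 0, 24 lay apart downward (38.1% of the list, against 6.73% of all genes tested), and the median was -0.61. Hist1h1d, a linker histone, had 145, 136 and 127 CPM with NSRdT and 196, 198 and 228 CPM with NSR (log2 fold change -0.61, adjusted p = 0.373). With dT alone it had 6.80 ± 2.58 CPM. Hist1h1c had 74.5, 51 and 62.5 CPM with NSRdT and 104, 129.5 and 104 CPM with NSR, also apart and not called (adjusted p = 0.12). Hist1h2ap, whose window above shows a run of A before the stem-loop, lay apart upward, with 149, 120.0 and 126 CPM with NSRdT and 106, 72.5 and 70.2 CPM with NSR, also without a call, and had 169 ± 13.2 CPM with dT alone. A looser form of that stem-loop was searched, with C or T allowed at some stem bases, A or G at others and any base in the loop. It stood in the last 50 bases of 10 of the 63 transcripts and of 10 of all 15611 transcripts searched. The median log2 fold change was -0.14 for the histones with it, 6 of them below 0, and -0.66 for the histones without it. Only annotated ends were searched. The annotated Hist1h2bl, of 381 bases, ends at its stop codon, and Hist1h1d has 744 bases in the deposited names but 7425 in the reference. The histones without the stem-loop can thus include genes whose annotated end is not that of the RNA, and this was not tested. Near-identical copies make the counts of single histone genes uncertain.

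The genes that mark ES cells were present at similar levels in both groups. Pou5f1, the transcription factor Oct4, had 160.2, 171 and 155 CPM with NSRdT and 195, 195 and 188 CPM with NSR, which lay apart without being called (log2 fold change -0.25, adjusted p = 0.902). Nanog had 261 ± 39.4 CPM with NSRdT and 234 ± 13.3 CPM with NSR, and Sox2 297 ± 44.2 CPM with NSRdT and 304 ± 52.5 CPM with NSR, both overlapping. Of 41 pluripotency genes tested, edgeR called 1 and DESeq2 called 2, all higher, where edgeR called 1.04% of all genes tested higher. The gene called by edgeR was Dppa5a, an ES-cell RNA-binding protein with a 619-base transcript, at 400.2, 456 and 423 CPM with NSRdT against 134, 124 and 119 CPM with NSR (log2 fold change 1.76, SE 0.11, adjusted p = 8.6e-08). The median of the list was -0.05. Marker lists of other cells (fibroblasts, trophectoderm, neuroectoderm, mesendoderm, primitive endoderm and the 2-cell-like state) gave no call by edgeR over their 32 tested entries, while DESeq2 called 1, in the primitive endoderm list, and 3 entries had an unadjusted p under 0.05. Summed, the 2 tested mesendoderm markers stood at 0.952, 3.06 and 9.73 CPM with NSRdT and 0.415, 5.40 and 0 CPM with NSR. Gata6, an endoderm transcription factor and also the gene of this line's transgene, had 65.1, 66.1 and 65.5 CPM with NSRdT and 133, 90.3 and 107 CPM with NSR, apart but not called by edgeR (log2 fold change -0.75, adjusted p = 0.211). Col4a2, a basement membrane collagen, had 14.8, 3.39 and 3.89 CPM with NSRdT and 26, 19.1 and 7.57 CPM with NSR, which overlap. Fn1 and the laminins were present at 755 ± 90.5 CPM (Fn1), 271 ± 29.1 CPM (Lama1) and 289 ± 23.5 CPM (Lamc1) with NSRdT, against 884 ± 149, 261 ± 59.9 and 271 ± 40.6 CPM with NSR.

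Among other functional groups, where 1.04% of all genes tested were called higher, the counts were small in number. Of 39 proteasome subunits 3 were called higher, Psmb5, Psmb1 and Shfm1. Psmb5, a catalytic subunit, had 17.6, 25.8 and 21.6 CPM with NSRdT and 3.32, 4.22 and 4.51 CPM with NSR (log2 fold change 2.43, SE 0.49, adjusted p = 0.0176). Of 39 translation factors 2 were called higher, Eef1b2 (331 ± 9.35 CPM with NSRdT, 204 ± 10.3 CPM with NSR) and Eif1 (94.8 ± 8.81 and 48.7 ± 16.8 CPM), while the elongation factors with longer mRNAs, Eef1a1 (4459 ± 66 and 4065 ± 107 CPM) and Eef2 (1388 ± 49.2 and 1612 ± 95.9 CPM), were not. Of 21 glycolysis genes, Pgam1, phosphoglycerate mutase, was called higher (323 ± 44.9 CPM with NSRdT, 171 ± 5.62 CPM with NSR). So was the enolase copy Eno1b, which shares 80.9% of its 31-base words with Eno1. Gapdh had 1007 ± 91.3 and 1216 ± 62.6 CPM and Pkm 719 ± 28.7 and 782 ± 17.1 CPM without a call. Srsf2, a splicing factor, was 1 of 10 SR proteins called higher (223 ± 9.17 CPM with NSRdT, 151 ± 19.8 CPM with NSR), and Gas5 1 of 17 snoRNA host RNAs (178 ± 30.3 and 93.4 ± 10.9 CPM). The calls of Eif1, Srsf2, Psmb5 and Gas5 each ended when one of several single libraries was left out. By edgeR no member was called among 8 chaperonin subunits, 38 cell cycle genes, 37 genes of DNA methylation and chromatin, 32 long non-coding RNAs, 87 small nucleolar and Cajal body RNAs, 304 zinc finger proteins or 110 genes with transcripts over 12000 bases. At an unadjusted p under 0.05, and by DESeq2, the zinc fingers gave 12 and 5, the long transcripts 13 and 2, the cell cycle genes 6 and 2, the small nucleolar RNAs 2 and 0, and the chaperonin and the chromatin genes 1 and 0 each, while the long non-coding RNAs gave 0 and 0.

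Outside the lists, short mRNAs also led. Lsm5 had 40.1, 28.2 and 36.1 CPM with NSRdT and 1.94, 6.59 and 1.19 CPM with NSR (log2 fold change 3.42, SE 0.52, adjusted p = 0.00125). Chchd2, a mitochondrial intermembrane protein, had 83.4, 85.5 and 89.2 CPM with NSRdT and 10.5, 11.5 and 8.23 CPM with NSR (log2 fold change 3.09, SE 0.20, adjusted p = 1e-07), and shares 53.8% of its 31-base words with other genes. Ptma, which encodes prothymosin alpha, had 821 ± 40.2 CPM with NSRdT and 519.6 ± 17.5 CPM with NSR, and Ybx1, an RNA-binding protein, 599 ± 13.5 and 348 ± 20.3 CPM. Both are examples of abundant genes with a smaller shift, log2 fold changes of 0.66 and 0.78.

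**Figure D3:**
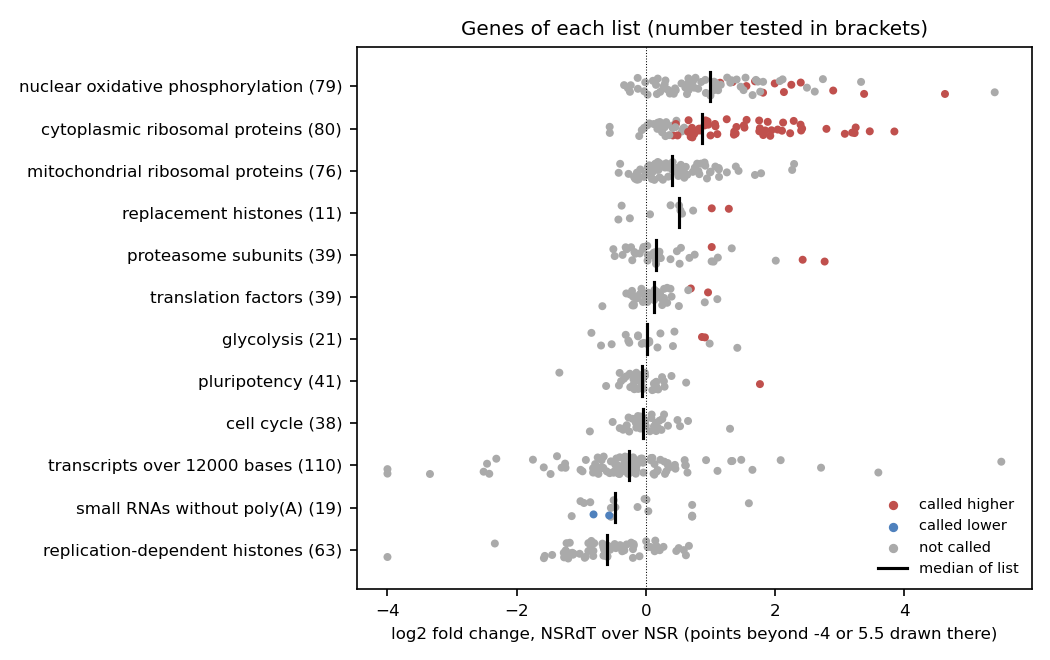
Log2 fold change of NSRdT over NSR (horizontal axis) for each tested gene of 12 lists, one point a gene, red where called higher, blue where called lower and grey where not called, with a black bar at the list's median and points beyond -4 or 5.5 drawn there. Calls concentrate in the oxidative phosphorylation and ribosomal protein rows (13 of 79 and 53 of 80), while the replication-dependent histones lie mostly left of 0 with a median of -0.61.

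Length was then described across all 11506 protein-coding genes tested. The median log2 fold change was 0.28 for transcripts under 500 bases, 0.49 from 500 to 1000, 0.15 from 1000 to 2000, -0.02 from 2000 to 4000, -0.10 from 4000 to 8000 and -0.18 from 8000 bases upward. By calls, 28 of 150 genes under 500 bases and 67 of 742 from 500 to 1000 were higher, against 9 of 4666 from 2000 to 4000. Across genes, Spearman's rho of length with fold change was -0.19 (11506 genes, given as a description since genes are not independent replicates), and -0.26 over the 4959 genes whose mean log2 CPM reached 4. Without the ribosomal protein and mitochondrial genes the medians of the first 2 bins were 0.14 and 0.47. The same order was seen in counts: transcripts under 1000 bases took 10.9, 10.8 and 10.9% of protein-coding counts with NSRdT, against 7.47, 7.24 and 7.19% with NSR. No NSRdT library overlapped an NSR library (exact permutation p = 0.1, the smallest possible), and without mitochondrially encoded transcripts the shares were 8.76 ± 0.0887% and 6.60 ± 0.0863% (SD, n = 3 each).

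**Figure D4:**
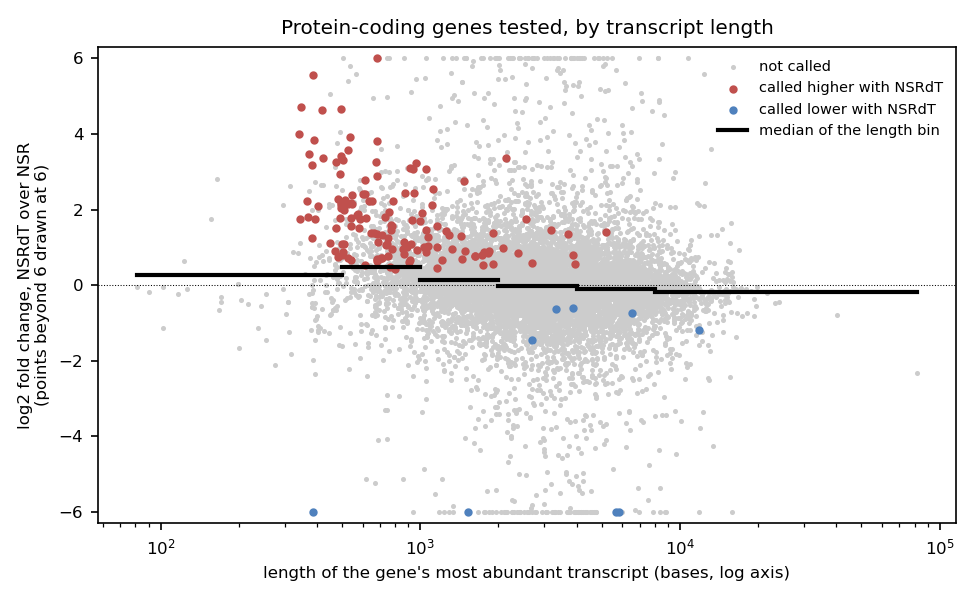
Log2 fold change of NSRdT over NSR (vertical axis, drawn at 6 or -6 when beyond) against transcript length in bases (horizontal log axis) for 11506 protein-coding genes, red where called higher and blue where called lower. Black bars are medians of length bins. They stand at 0.28 under 500 bases and at 0.49 from 500 to 1000 bases, then step down to -0.18 at 8000 bases and more. Nearly all red points lie left of 2000 bases.

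Sequence features of the transcripts were not used in the comparison. A polyadenylation signal was found in the last 50 bases of 101 of 134 protein-coding genes called higher (75.4%) and of 78.0% of all protein-coding genes tested. The longest run of A in the transcript had a median of 5 bases in the protein-coding genes called higher and 6 bases in all protein-coding genes tested. A run of 10 or more A was present in 11.2% of the genes called higher and 16.3% of all, and median GC content was 50.6% and 50.1%. Among protein-coding genes called lower, 8 of 9 held a signal (88.9%). Over all biotypes, a signal was found in 112 of 160 genes called higher (70.0%), 10 of 30 called lower (33.3%) and 66.9% of all tested genes.

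The 30 genes called lower comprised 3 rRNA-annotated genes, 4 other non-coding genes, 11 pseudogenes, 5 genes with predicted symbols and 7 other protein-coding genes. Ribosomal and other abundant non-coding RNAs are given first. Of 4 tested rRNA-annotated genes 3 were called lower, where 0.191% of all genes tested were. Rn18s-rs5 had 95787, 85517 and 92864 CPM with NSRdT and 171848, 147812 and 148873 CPM with NSR (log2 fold change -0.77, SE 0.07, adjusted p = 2.41e-06). mt-Rnr1, the mitochondrial 12S rRNA, had 45914 ± 2549 CPM with NSRdT and 64232 ± 1509 CPM with NSR, and mt-Rnr2, the 16S rRNA, 59707 ± 3350.1 and 83371 ± 1285 CPM. Rn7sk had 3548, 3282 and 3507 CPM with NSRdT and 5101, 4625 and 5605 CPM with NSR (log2 fold change -0.57, SE 0.08, adjusted p = 0.000776), and Rmrp 572, 480.4 and 508 CPM with NSRdT and 1073, 730.5 and 934 CPM with NSR (log2 fold change -0.81, SE 0.15, adjusted p = 0.0104). Of 19 tested small RNAs without poly(A), edgeR called Rn7sk and Rmrp and DESeq2 called 5, all lower, where edgeR called 0.191% of all genes tested lower. On this list 7 lay apart downward (36.8%, against 6.73% of all genes tested) and 1 upward (5.26%, against 7.82%), and the median was -0.47. Rpph1, the RNA of RNase P, had 256, 198 and 228 CPM with NSRdT and 519.9, 354 and 449.6 CPM with NSR and was not called (adjusted p = 0.244). Rmrp shares 100% of its 31-base words with another entry of the same name, and Rn7sk and Rpph1 share 72.8% and 70.2% with other genes. Of the 30 genes called lower, 14 share at least 50%, and how such reads were divided was not tested. The calls of Rn7sk, Rmrp, mt-Rnr1 and Mir6236 ended when library totals replaced TMM, and that of Rmrp also without NSRdT replicate 2, NSRdT replicate 3 or NSR replicate 1.

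Lars2, with a transcript of 3881 bases on chromosome 9, belongs beside these by its level. It had 65481, 63096 and 67392 CPM with NSRdT and 104151, 96971 and 98409.6 CPM with NSR (log2 fold change -0.61, SE 0.04, adjusted p = 1.21e-07), the highest mean level of any protein-coding gene in the NSRdT libraries, and shared 1.09% of its 31-base words with other transcripts. With dT alone it had 101774 ± 4851 CPM, where Gm42418 had 3453 ± 118 and Rn18s-rs5 1772 ± 124 CPM. In the bulk libraries, made from 200 ng with 7 cycles of PCR, Lars2 took 0.00197, 0.00284 and 0.00182% of the counts, against 7.44 ± 0.101% with NSRdT. The source of the Lars2 counts in the RT-RamDA libraries was not tested. AA474408, on chromosome 7, had 930.4 ± 69.2 CPM with NSRdT and 1450.1 ± 47.9 CPM with NSR, and Mir6236 6559 ± 306 and 9379 ± 916 CPM.

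Single mRNAs, several of them long, were also lower. Map1b, a microtubule-associated protein with a transcript of 11852 bases, had 74, 75.3 and 52.2 CPM with NSRdT and 167, 124 and 166 CPM with NSR (log2 fold change -1.18, SE 0.24, adjusted p = 0.0196). Ncaph, a condensin subunit, had 22.1 ± 8.25 CPM with NSRdT and 60.9 ± 4.61 CPM with NSR (log2 fold change -1.46, SE 0.33, adjusted p = 0.0406), and Tmem131 119 ± 17 and 199 ± 23.6 CPM (log2 fold change -0.74, SE 0.17, adjusted p = 0.0442). All 3 calls ended under several settings, including the omission of single libraries from either group. Lrrtm2, a synaptic membrane protein, had 0 counts in the 3 NSRdT libraries and 16.1, 14.1 and 15.3 CPM in the NSR libraries, at least 40.4-fold lower with NSRdT against a floor of 3 counts per library. Rnase4 and Gm5616 likewise had 0 counts with NSRdT and low levels with NSR, and were at least 11.8-fold and at least 17-fold lower on that floor. Gm5616, a gene with a predicted symbol, shares 90.4% of its 31-base words with Snu13. How reads were divided between them was not tested. Of the 110 genes over 12000 bases 13 lay apart downward (11.8%, against 6.73% of all genes tested), and their median was -0.27, which became 0.04 by library totals.

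Finally among the lower genes stood nuclear pseudogenes that copy a mitochondrial gene. At chr1:24611535-24616197, minus strand, 7 annotated pseudogenes share 97.2% to 100% of their 31-base words with a mitochondrial mRNA. The ends of 3 pairs are shown because they carry what little the mitochondrial transcript has and the copy has not, in capitals. In each pair the copy's whole transcript is contained in the mitochondrial transcript.
mt-Co2 (chrM:7667-7696, plus strand): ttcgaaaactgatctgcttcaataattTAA
Gm28661 (chr1:24614885-24614911, minus strand): ttcgaaaactgatctgcttcaataatt
mt-Atp6 (chrM:8578-8607, plus strand): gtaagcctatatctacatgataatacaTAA
Gm10925 (chr1:24613974-24614000, minus strand): gtaagcctatatctacatgataataca
mt-Co3 (chrM:9361-9390, plus strand): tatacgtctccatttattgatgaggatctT
Gm28437 (chr1:24613189-24613217, minus strand): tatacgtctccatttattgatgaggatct

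For these 3 pairs the counts sat mostly on the mitochondrial gene in NSRdT libraries and on the copy in NSR libraries. mt-Co2, a subunit of cytochrome c oxidase, had 2747, 2497 and 2675 CPM with NSRdT and 2.49, 41 and 2.52 CPM with NSR (log2 fold change 7.42, SE 1.04, adjusted p = 0.000582). Its copy Gm28661 had 8.78, 264 and 171 CPM with NSRdT and 3297, 3546 and 3458 CPM with NSR (log2 fold change -4.54, SE 0.98, adjusted p = 0.0281), a call that ended without NSRdT replicate 3 or any 1 of the NSR libraries. mt-Atp6, of ATP synthase, had 2748, 3007 and 3015 CPM with NSRdT and 398, 139.9 and 80.6 CPM with NSR, while its copy Gm10925 had 0, 0.806 and 0.649 CPM with NSRdT and 2190.4, 2400.3 and 2558 CPM with NSR. mt-Co3 had 2827, 2995 and 2966 CPM with NSRdT and 559.7, 911 and 419 CPM with NSR, while its copy Gm28437 had 0, 0.322 and 0.216 CPM with NSRdT and 2364, 2119 and 2454 CPM with NSR. mt-Nd3, of complex I, was called higher as well (28.8 ± 4.45 CPM with NSRdT, 1.09 ± 0.702 CPM with NSR), though most counts stood on the copy Gm28438 (545 ± 37.1 and 583 ± 14.6 CPM). Gm29216, the copy of part of mt-Co1, went against the other copies, with 271, 322 and 313 CPM with NSRdT and 3.46, 0 and 10.6 CPM with NSR (adjusted p = 8.88e-05). With dT alone, mt-Co2 had 2751 ± 89.7 CPM and Gm28661 0.451 ± 0.677 CPM.

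Summed over a gene and its copy, these calls ended or changed sign. The mt-Co2 pair had 2756, 2762 and 2847 CPM with NSRdT and 3299, 3586 and 3460.4 CPM with NSR, now lower with NSRdT (log2 fold change -0.31, SE 0.05, adjusted p = 0.00224). The mt-Atp6 pair had 2924 ± 153 CPM with NSRdT and 2588 ± 49.8 CPM with NSR (log2 fold change 0.18, SE 0.05, adjusted p = 0.176). The mt-Co3 pair had 2929.9 ± 90.0 and 2941 ± 79.8 CPM (log2 fold change -0.01, SE 0.05, adjusted p = 1), and the mt-Nd3 pair 574 ± 32.7 and 584 ± 14.2 CPM (log2 fold change -0.02, SE 0.10, adjusted p = 1). Of 13 mitochondrial mRNAs the 4 that edgeR called higher one by one were thus all members of such pairs, and it called none lower. At an unadjusted p under 0.05, 5 were lower, and DESeq2 called 3 higher and 4 lower. How the reads were divided between the members of a pair is not given in the sources used here, and its part in these calls was not tested beyond the sums. With the copies summed in, 158 genes were called higher and 28 lower over the whole table.

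**Figure D5:**
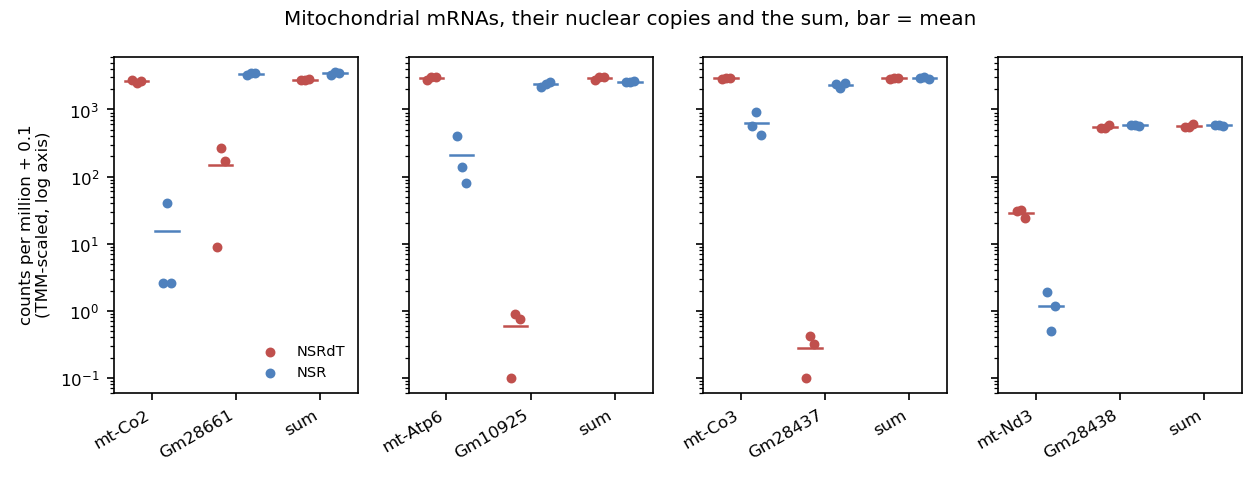
Level in TMM-scaled CPM plus 0.1 (vertical log axis) of 4 mitochondrial mRNAs, their nuclear copies on chromosome 1 and the sum of both, in each NSRdT library (red, left) and each NSR library (blue, right), with bars at the means of 3 libraries. For mt-Co2, mt-Atp6 and mt-Co3 the NSRdT points are high on the mitochondrial gene and low on the copy, the NSR points the other way round, and the sums lie close together.

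Among mitochondrial tRNAs, 2 of 15 tested were called higher, mt-Ts1 and mt-Te, where 1.04% of all genes tested were called higher. mt-Ts1, a serine tRNA (chrM:6870-6938, minus strand), had 61.8, 60.0 and 60.7 CPM with NSRdT and 0.138, 0 and 0.133 CPM with NSR (adjusted p = 1e-07). It held 584, 372 and 562 counts in the NSRdT libraries and 1, 0 and 1 in the NSR libraries, a ratio of 681 per effective library size, with an exact 95% interval of 188 to 5630 that covers counting error only. Its 3' end overlaps the end of mt-Co1 (chrM:5328-6872, plus strand), though only at chrM:6870-6872. mt-Co1, a cytochrome c oxidase subunit, had 6969.8 ± 134 CPM with NSRdT and 7707 ± 225 CPM with NSR. Without the strand of counting, reads of mt-Ts1 cannot be told from RNA of the other strand, but mt-Co1 as annotated covers only those few bases of it. mt-Te had 15.9 ± 1.98 CPM with NSRdT and 1.70 ± 0.536 CPM with NSR.

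The study's design also added dT to N6, which allowed the same change to be set beside another primer with no library in common. With N6dT over N6, 154 genes were called higher (0.982%) and 24 lower (0.153%), and 103 genes were higher in both comparisons, 63.2% of the 163 and 66.9% of the 154. Downward, 18 were called in both, 60% of the 30 and 75% of the 24. Of the ribosomal protein list 53 genes were called with N6dT too. Rps29 had 259, 221 and 231 CPM with N6dT and 21.4, 12.4 and 22.9 CPM with N6, and Rplp2 326 ± 5.21 and 40.5 ± 6.89 CPM. Across the 5499 genes whose mean log2 CPM reached 4, Spearman's rho between both sets of fold changes was 0.26, given as a description.

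Whether dT acted differently beside NSR and beside N6 was tested as an interaction. It was called for 10 genes (0.0638%), 7 with a more positive (0.0446%) and 3 with a more negative (0.0191%) log2 change beside NSR, and 687 had an unadjusted p under 0.05. The 7 shared 52.7% to 100% of their 31-base words with other genes, and the 3 shared 0% to 1.09%. How reads were divided among genes that share sequence was not tested. Chchd2 changed by 3.09 beside NSR and by 1.40 beside N6 (difference 1.70, SE 0.27, adjusted p = 0.0372), and its N6 libraries had 29, 33.3 and 33 CPM where NSR had 10.5, 11.5 and 8.23. Rps24, a small-subunit protein, changed by 0.91 and 0.11 (difference 0.80, SE 0.12, adjusted p = 0.0372), with 485 ± 15.8 CPM in NSRdT, 259 ± 12.6 in NSR, 503 ± 26 in N6dT and 467 ± 8.53 in N6. Rpl14 changed by 3.08 and 1.72 (difference 1.36, SE 0.23, adjusted p = 0.0403). For these 3 all NSR libraries were below all N6 libraries. Downward, Gm42418 changed by -0.55 and -0.22, and Lars2 by -0.61 and -0.26. Fewer genes were called when any 1 library of the 4 groups was left out. With N6dT replicate 1, N6dT replicate 3 or N6 replicate 3 left out, edgeR called 0 genes (735, 728 and 736 at an unadjusted p under 0.05). With any other single library left out it called 2 to 7. A fit with fewer libraries also has less power, so these counts do not show that a single library carried a call. DESeq2 called 70.

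More genes were seen with NSRdT at equal depth. Thinned to 5333302 counts each, the NSRdT libraries held 18278, 18263 and 18196 genes with 1 count or more, against 18145, 17716 and 17564 in the NSR libraries (exact permutation p = 0.1, two-sided, the smallest possible). The groups did not overlap, by a gap of 51 genes between the lowest NSRdT and the highest NSR library. At 5 counts or more, 14119, 14206 and 14093 genes were seen with NSRdT and 13847, 13741 and 13740 with NSR. Without thinning the numbers were 19008, 18263 and 18832 with NSRdT and 18844, 18399 and 18101 with NSR, and overlapped (exact permutation p = 0.5). With rRNA and mitochondrial genes left out before thinning they were 18226, 18181 and 18171 with NSRdT and 18202, 17810 and 17624 with NSR, which also overlapped (exact permutation p = 0.3). The median coefficient of variation between replicates, over 7142 genes at 10 CPM or more, was 0.254 with NSRdT and 0.272 with NSR.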

How the data were processed

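The deposited table holds the authors' estimated counts for 115125 transcript entries with GENCODE names in 18 libraries. The submitters' processing notes name bcl2fastq 2.16.0.10 and the build mm10. Which aligner and quantifier were used, and whether strand was counted, is not given in the sources used here. After leaving out 92 ERCC spike-in entries, transcripts were summed to 47643 genes and rounded. edgeR 4.0.16 (R 4.3.3) was fitted to the 15 RT-RamDA libraries in 5 groups (10 residual degrees of freedom), with TMM, filterByExpr, quasi-likelihood tests and Benjamini-Hochberg adjustment over 15682 genes. Calls have an adjusted p under 0.05, two-sided. SE is the fold change divided by the root of F. Shares were compared with exact permutation tests. Checked on simulated data for 15682 genes, the NSRdT against NSR test recovered 75 of 100 genes changed 2-fold and 99 of 100 changed 4-fold, with 9 false among 183 calls. The changed genes were drawn only from those above a minimum mean count. The spread was set by a formula and not estimated from these libraries, and the groups differed in nothing else. The simulation thus checks the procedure and does not give the recovery in these data.

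Depth was 5333546 to 8315792 counts per library, and a gene with 0 counts in a library is bounded only by a floor of 3 counts. Pearson's r of log2 CPM across 7142 genes between replicates was 0.820 to 0.835 for NSRdT and 0.819 to 0.826 for NSR. Replicate numbers follow the letters A, B and C in the suffix of the library titles, which the labels do not explain. Libraries were not paired across groups by these letters. The number after the letter is the same within a group and differs between groups, so anything it stands for cannot be told apart from the primers. Members and gene lists were chosen with earlier results of these data known. Named genes were the largest changes among called genes whose mean log2 CPM reached 4, the 2 most abundant and the 2 of smallest p per list, interaction calls and fixed controls. Ndufa1, Cox7b, Rps12, H3f3b, Psmb1, mt-Co3, Gm28438, Ptma, Ybx1, Rnase4 and Gm5616 fall outside that rule and were chosen after their values were seen. Transcript sequences, ends and shared 31-base words are from GENCODE vM21 transcripts (GRCm38). Alternatives were other scalings, filters, DESeq2 1.42.0, a replicate block, fewer libraries and summed mitochondrial copies.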

Additional observations from a re-analysis of the deposited data

Results flagged for a closer look

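The change with dT differed between the NSR and the N6 primers, by the test of the interaction, for 10 genes, each given here as the log2 fold change of NSRdT over NSR minus that of N6dT over N6. Leaving out 1 library of the 4 groups, which also lowers the power, gave 0 to 7 calls, with 0 without N6dT replicate 1, N6dT replicate 3 or N6 replicate 3. Of 19 settings, the call ended in 14 for Rpl41 and in 13 for Rps24 and Lrrtm2. The difference was 1.82 for Rpl27-ps3, 0.80 for Rps24, 1.36 for Rpl14, 1.03 for Rpl41, 1.70 for Chchd2 and 1.21 for Eno1b. These genes, and Gm29216 below, shared 52.7% to 100% of their 31-base words with other genes. How such reads were divided was not tested. Among the positive differences, that of Gm29216 was the largest. The difference was 6.38 for Gm29216, the nuclear copy of part of mt-Co1, which had 271, 322 and 313 CPM with NSRdT, 3.46, 0 and 10.6 with NSR, 352, 299 and 274 with N6dT and 321, 376 and 501 with N6. It was -0.33 for Gm42418 and -0.35 for Lars2. It was -10.31 for Lrrtm2, a fitted value that depends on a prior count because NSRdT held 0 counts, while N6dT had 11.7, 6.16 and 8.49 CPM and N6 6.95, 11.6 and 3.24 CPM.

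The ERCC spike-ins, which enter no comparison above, took 0.516% of all counts with NSRdT on average (0.512, 0.536 and 0.500% by library), against 0.464, 0.488 and 0.459% with NSR (exact permutation p = 0.1, two-sided, the smallest that 3 against 3 libraries allow). The share was 0.372, 0.393 and 0.369% with N6dT, 0.380, 0.367 and 0.373% with N6 and 0.371, 0.385 and 0.355% with dT alone.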

How the results depend on the processing

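Of 193 calls, library totals in place of TMM gave 343 (328 higher and 15 lower, 95.6% higher against 84.5%), 34 of them oxidative phosphorylation genes, and turned the medians of mitochondrial mRNAs, transcripts over 12000 bases and pluripotency genes to 0.264, 0.0403 and 0.243. DESeq2 gave 412 (300 higher and 112 lower, 72.8% higher), 35 oxidative phosphorylation genes and 70 interaction calls. Without a filter beyond 1 count there were 81 lower calls against 166 higher (67.2% higher) and 53 interaction calls. The 6 libraries alone gave 118 calls, 92 of them higher, and 4 oxidative phosphorylation genes. Leaving out 1 library gave 142 to 153 calls, 122 to 131 higher and 19 to 25 lower, 47 to 49 ribosomal protein and 10 to 13 oxidative phosphorylation genes and 0 to 7 interaction calls, and mitochondrial mRNA medians of -0.0881 to 0.0325, the highest without NSR replicate 1.

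Same-numbered libraries did not deviate together (r = 0.0249, 0.0114 and 0.00705), so the block tests only a shared number. With the replicate block the interaction gave 5 calls, and with the 6 libraries and the replicate block there were 63 calls (46 higher, 17 lower), 31 ribosomal protein genes and 0 oxidative phosphorylation genes.

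Without rRNA-annotated and mitochondrial genes the NSRdT minus NSR differences in share, in percentage points, were 5.71 for protein-coding, -3.87 for lincRNA, -0.0041 for retained introns (sign changed), 0.122 for processed transcripts and -0.318 for misc RNA. Without the 5 leading genes, added after seeing the data, they were 6.13 for protein-coding and -1.50 for lincRNA. These are shares of the counts left, and the genes taken out, Gm42418 among them, held more of the counts in the NSR libraries. For the short-transcript share, limits of 500 and 2000 bases gave 0.554 and 6.16, leaving out mitochondrial transcripts 2.16, and leaving out Lars2 too, also added after seeing the data, 1.86, against 3.59. Summed with its copy, mt-Co2 gave -0.31 and mt-Nd3 -0.0242. The causes were not tested. Depth limits genes near 0 counts, where 8 of the 30 lower calls had an NSRdT mean under 1 CPM.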
